A study of Macaca mulatta with 81 samples.

Results

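Blood T cells from rhesus macaques given sirolimus alone after an allogeneic hematopoietic cell transplant were set against T cells from macaques given tacrolimus with methotrexate, both at the final sampling. The arrays were chosen by their group labels, Siro.F with no other agent in the name (4 arrays) and Tac.Mtx.F (3 arrays), which makes 7 of the 81 expression arrays of the series. The labels abbreviate the drugs, and Siro, Tac and Mtx are taken here to be sirolimus, tacrolimus and methotrexate. Each array holds the RNA of CD3 cells sorted from 1 animal.

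The Siro.F arrays are those of animals 13, 16, 17 and 18, and the Tac.Mtx.F arrays those of animals 19, 20 and 21, all recipients of an allogeneic graft. Healthy.Control holds 34 arrays labelled as healthy controls, and 11 animals gave both such an array and a transplant array, among them Siro.F animals 13, 16 and 18. The labels name no transgene, no dose and no day for the final samples, so the drugs cannot be set against each other at a matched dose or time. Tacrolimus was given with methotrexate, and the share of each in a difference cannot be told apart. Siro.F arrays 16 and 17 carry batch label 1 and arrays 13 and 18 batch label 2, whereas all 3 Tac.Mtx.F arrays carry batch label 3. The groups share no batch, so drug and batch cannot be told apart, and the only link between them is the healthy controls, with 5, 10 and 13 arrays in batches 1, 2 and 3.

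Sirolimus and tacrolimus are related macrolides that enter the cell and bind the same small protein, FKBP1A (FKBP12). The complexes then part ways. Sirolimus with FKBP1A inhibits the kinase mTOR, which couples nutrients and cytokines to growth and division. Tacrolimus with FKBP1A inhibits calcineurin, the phosphatase that lets the NFAT transcription factors enter the nucleus after a T cell receptor signal. Methotrexate is an antifolate that limits thymidine and purine synthesis in dividing cells. All are used to prevent graft-versus-host disease, the attack of donor T cells on the recipient.

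Values are log2 signals, so a difference of 1 is a doubling. A median of 5.19 to 5.23 was found in the Siro.F arrays, 5.12 to 5.13 in the Tac.Mtx.F arrays and 5.15 to 5.28 in the healthy arrays. The actin signal at the 3' end exceeded that at the 5' end, a sign of RNA quality, by 0.70 to 1.82 in Siro.F, 0.60 to 1.39 in Tac.Mtx.F and 0.43 to 3.83 in healthy arrays. The T cell marker CD5 was bright, at 10.27 to 10.78 in Siro.F, 10.75 to 10.89 in Tac.Mtx.F and 10.24 to 11.34 in healthy arrays. The CD3 chain genes had no named probe set and were not analysed here. Between batches of healthy controls, an F test gave p above 0.95 for 62% of genes instead of 5%, which shows that an adjustment for batch preceded the deposit. No batch term of the fit exceeded 0.114. The adjustment may understate the spread, and with it the p-values.

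Of 11806 genes tested, 23 (0.195%) passed a Benjamini-Hochberg adjusted p of 0.05 in limma for Siro.F against Tac.Mtx.F. In Siro.F, 6 genes were higher (0.0508%) and 17 lower (0.144%). The NFAT transcription factor NFATC1 and ID3, an inhibitor of E protein transcription factors, were among the higher genes. SMIM3, the transcription factors TWIST1 and RUNX1, and the anti-inflammatory protein ANXA1 were among the lower genes. Of the 23 genes, 8 differed at least 2-fold. The median difference of all genes was -0.026, and 1470 genes (12.5%) had an unadjusted p under 0.05. In the same fit, with 34 healthy arrays on the other side, 1725 genes (14.6%) passed for Siro.F against healthy controls and 1665 (14.1%) for Tac.Mtx.F, comparisons that share the healthy arrays and are more precise than 4 arrays against 3.

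**Figure D1:**
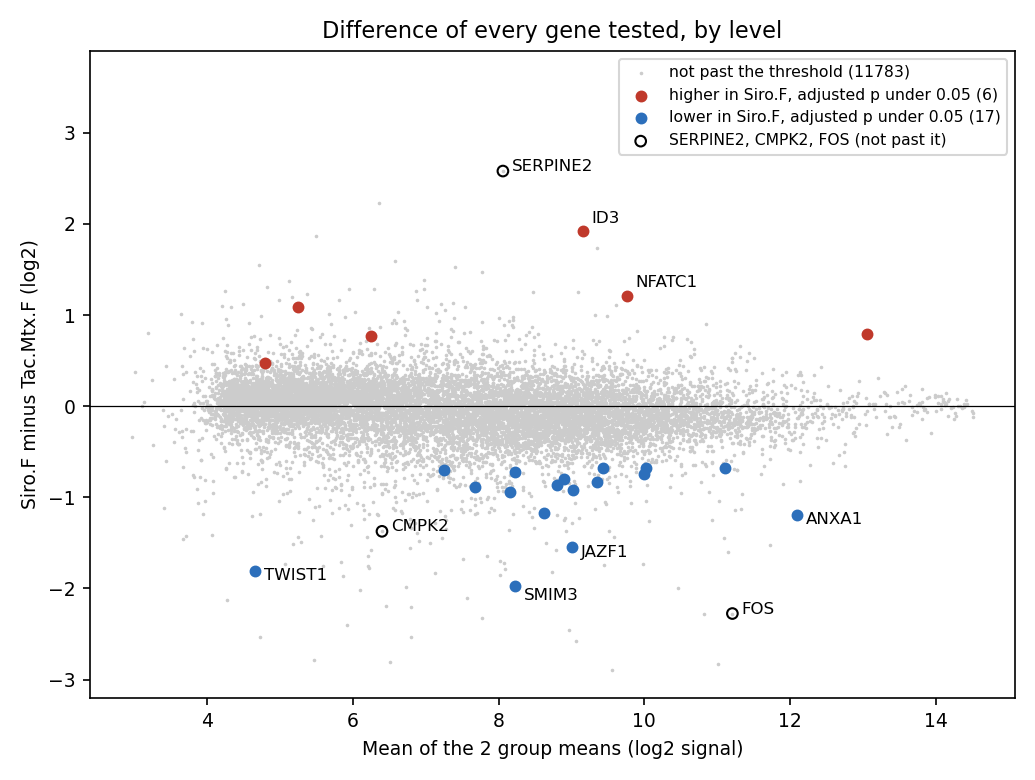
Difference between the group means (Siro.F minus Tac.Mtx.F, log2, batch term in the fit) of each of 11806 genes against the mean of both groups (log2 signal). Red points are the 6 genes higher in Siro.F and blue points the 17 lower at an adjusted p under 0.05, and open circles mark SERPINE2, CMPK2 and FOS, which did not pass.

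The count of genes rested strongly on 2 arrays. It fell to 5 when Siro.F animal 18 was left out and to 11 without Tac.Mtx.F animal 19, and ranged from 16 to 32 without any other array of the 7. CHST11, JAZF1, MED10, SMIM3 and TWIST1 passed in all 7 of these fits. All 23 genes kept their sign in all of them, which was largely fixed beforehand. In each of the 23, every Siro.F array lay on one side of every Tac.Mtx.F array, so leaving out an array could hardly turn the sign. A fit that had no batch term passed 303 genes and a random block for the animal 41, and both counts included the 23.

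NFATC1 is an NFAT factor that calcineurin activates and that also drives its own gene. Its signal was 10.19, 10.09, 10.38 and 10.76 in Siro.F animals 13, 16, 17 and 18, against 8.84, 9.11 and 9.52 in Tac.Mtx.F animals 19, 20 and 21. The healthy controls ran from 8.79 to 9.87 with a median of 9.31. Every Siro.F array lay above every Tac.Mtx.F array and above the healthy maximum. The difference was 1.21 ± 0.27 (SE; 2.31-fold higher in Siro.F, limma adjusted p = 0.02). Against healthy controls, NFATC1 rose by 0.99 in Siro.F (adjusted p = 5.06e-05), and Tac.Mtx.F differed by -0.22 (adjusted p = 0.533). The 3 other probe sets of NFATC1 differed less, by 0.21 to 0.40, and the mean of its probe sets by 0.53 (adjusted p = 0.171). The call was lost without Siro.F animal 18 (1.06, adjusted p = 0.0942), without Tac.Mtx.F animal 19 (1.05, adjusted p = 0.114) and without Tac.Mtx.F animal 20 (1.19, adjusted p = 0.0832).

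ID3 holds E proteins away from DNA and is known to be kept high in naive and long-lived T cells and to fall in effector cells. It stood at 9.59, 10.61, 9.33 and 10.89 in Siro.F animals 13, 16, 17 and 18 and at 7.94, 8.27 and 8.41 in Tac.Mtx.F animals 19, 20 and 21. The 34 healthy arrays ran from 7.91 to 9.70 with a median of 8.66. The 2 groups did not overlap, and animals 16 and 18 also exceeded every healthy array. ID3 was 3.80-fold higher in Siro.F (1.93 ± 0.43, SE, adjusted p = 0.02). In the 3 Siro.F animals with a healthy control array of their own, ID3 was higher in the Siro.F array. It was 9.59 against 8.06 (animal 13), 10.61 against 8.25 (animal 16) and 10.89 against 8.82 (animal 18). The healthy array of animal 16 carries batch label 2 and its Siro.F array batch label 1. A second ID3 probe set, dimmer, went the other way (-0.56, limma adjusted p = 0.273 among all probe sets), and the mean of the ID3 probe sets gave 0.36 (adjusted p = 0.427). The call was also lost without Siro.F animal 16 (1.76, adjusted p = 0.0854) or 18 (1.63, adjusted p = 0.113) and without Tac.Mtx.F animal 19 (1.79, adjusted p = 0.101) or 20 (1.96, adjusted p = 0.0705).

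TWIST1, a basic helix-loop-helix factor that limits inflammatory gene expression in mouse Th1 cells, was near the lower end of the array's range in Siro.F. It measured 3.59, 3.57, 3.87 and 3.95 in Siro.F animals 13, 16, 17 and 18, against 4.71, 5.94 and 6.03 in Tac.Mtx.F animals 19, 20 and 21. The healthy controls ran from 3.41 to 4.12. All Siro.F arrays lay inside the healthy range and all Tac.Mtx.F arrays above it. The difference was -1.81 ± 0.31 (SE; 3.49-fold lower in Siro.F, adjusted p = 0.000805). Siro.F differed from healthy controls by 0.03 (adjusted p = 0.937), and Tac.Mtx.F rose by 1.84 (adjusted p = 4.69e-07). All Siro.F and healthy arrays lay below the filter level of 4.65, so no size of the change in RNA is drawn from this difference.

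SMIM3, which encodes a small membrane protein, had the smallest adjusted p of the comparison. Its signal was 7.14, 7.57, 7.39 and 6.83 in Siro.F animals 13, 16, 17 and 18, against 8.72, 9.65 and 9.27 in Tac.Mtx.F animals 19, 20 and 21, with healthy arrays from 8.59 to 9.84. All 4 Siro.F arrays fell below every healthy array, and the 3 Tac.Mtx.F arrays lay within the healthy range. SMIM3 was 3.93-fold lower in Siro.F (-1.97 ± 0.29, SE, adjusted p = 4.3e-05). Its other probe set gave -1.78. Own healthy arrays read 9.51, 9.22 and 9.56 for animals 13, 16 and 18, that of animal 16 under another batch label than its Siro.F array.

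JAZF1 encodes a zinc finger protein of a histone acetyltransferase complex. It stood at 8.03, 8.26, 8.43 and 8.21 in Siro.F animals 13, 16, 17 and 18 and at 10.06, 9.40 and 9.92 in Tac.Mtx.F animals 19, 20 and 21, and the healthy arrays ran from 9.12 to 10.00. All Siro.F arrays were below the healthy minimum. The difference was -1.55 ± 0.26 (SE, adjusted p = 0.000805), and the second JAZF1 probe set gave -0.84.

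ANXA1 is annexin A1, a calcium-dependent phospholipid-binding protein that glucocorticoids induce and that dampens inflammation. It was one of the brightest of these genes, at 11.47, 11.41, 11.85 and 11.28 in Siro.F animals 13, 16, 17 and 18, against 12.88, 12.60 and 12.62 in Tac.Mtx.F animals 19, 20 and 21. Healthy arrays ran from 12.19 to 13.14, above every Siro.F array. ANXA1 was 2.28-fold lower in Siro.F (-1.19 ± 0.25, SE, adjusted p = 0.0133), and its second probe set gave -1.46. The call was lost without Siro.F animal 18 (-1.10, adjusted p = 0.0618) or Tac.Mtx.F animal 19 (-1.10, adjusted p = 0.0843).

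RUNX1, a transcription factor of blood stem cells and T cell development, measured 8.18, 8.61, 8.87 and 8.58 in Siro.F animals 13, 16, 17 and 18, against 9.55, 9.45 and 9.43 in Tac.Mtx.F animals 19, 20 and 21 (healthy range 9.08 to 9.82). The difference was -0.92 ± 0.20 (SE, adjusted p = 0.02). This value depended on the probe set, since of 5 other RUNX1 probe sets 1 gave -0.82 and 4 gave 0.02 to 0.06. The mean of all named RUNX1 probe sets, the brightest included, gave -0.18 (adjusted p = 0.39). The call was lost without Siro.F animal 13 (-0.77, adjusted p = 0.0796) or 18 (-0.92, adjusted p = 0.0618) and without Tac.Mtx.F animal 19 (-0.88, adjusted p = 0.0843) or 20 (-0.93, adjusted p = 0.0647).

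ZNF652, a zinc finger repressor, was very bright, at 13.27, 13.58, 13.63 and 13.36 in Siro.F animals 13, 16, 17 and 18, against 12.62, 12.75 and 12.61 in Tac.Mtx.F animals 19, 20 and 21. All Tac.Mtx.F arrays lay below the healthy range of 13.16 to 13.85, and all Siro.F arrays inside it. The difference was 0.79 ± 0.19 (SE, adjusted p = 0.0416), the second ZNF652 probe set gave -0.45, and the mean of both gave 0.17 (adjusted p = 0.749). In 6 of the 7 fits without 1 array ZNF652 missed the threshold, with differences of 0.73 to 0.83 and adjusted p up to 0.104, and it passed without Siro.F animal 13.

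The other genes higher in Siro.F were dim. STYK1, a receptor-like kinase, stood at 5.28, 5.73, 5.86 and 6.28 in Siro.F animals 13, 16, 17 and 18, against 4.84, 4.73 and 4.52 in Tac.Mtx.F animals 19, 20 and 21 (1.09 ± 0.23, SE, adjusted p = 0.0153). The second STYK1 probe set gave 1.16 ± 0.54 (SE, limma adjusted p = 0.319 among all probe sets), and the mean of both gave 1.12 (adjusted p = 0.161). SCUBE2, a secreted protein of hedgehog signalling, stood at 6.40, 6.33, 6.65 and 7.14 in Siro.F animals 13, 16, 17 and 18, against 5.97, 5.75 and 5.87 in Tac.Mtx.F animals 19, 20 and 21 (0.77 ± 0.15, SE, adjusted p = 0.00326). All Siro.F arrays exceeded the SCUBE2 healthy maximum of 6.24. CDH5, the cadherin of endothelial cells, differed by 0.47 ± 0.11 (SE, adjusted p = 0.0416), from 4.89 to 5.15 in Siro.F against 4.53 to 4.57 in Tac.Mtx.F. All Tac.Mtx.F arrays lay below the filter level of 4.65 for CDH5. CDH5 passed in 1 of the 7 fits without 1 array (values 0.44 to 0.52). Without Siro.F animal 18, STYK1 gave 0.89 (adjusted p = 0.0923) and SCUBE2 0.57 (adjusted p = 0.0694), and without Tac.Mtx.F animal 21 STYK1 gave 1.00 (adjusted p = 0.0705).

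CHST11, a sulfotransferase that builds chondroitin 4-sulfate, moved away from healthy T cells in both directions. It stood at 8.25, 7.76, 8.14 and 7.94 in Siro.F animals 13, 16, 17 and 18, against 9.31, 9.17 and 9.15 in Tac.Mtx.F animals 19, 20 and 21 (healthy range 7.89 to 8.97). The difference was -1.17 ± 0.22 (SE, adjusted p = 0.00324). Against healthy controls, CHST11 fell by 0.45 in Siro.F (adjusted p = 0.0261) and rose by 0.72 in Tac.Mtx.F (adjusted p = 0.00211). MED10, a Mediator subunit, also differed from healthy controls both ways, by -0.45 in Siro.F (adjusted p = 0.000712) and by 0.35 in Tac.Mtx.F (adjusted p = 0.0278). MED10 stood at 8.71, 8.22, 8.72 and 8.37 in Siro.F animals 13, 16, 17 and 18, against 9.22, 9.33 and 9.35 in Tac.Mtx.F animals 19, 20 and 21 (-0.80 ± 0.15, SE, adjusted p = 0.00324).

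The remaining lower genes differed by less than 1 on the log2 scale. They included SLC38A6, of an amino acid transporter family (-0.89), FAM76A (-0.87), COPS8, a subunit of the COP9 signalosome (-0.83), PLCL2, a phospholipase C-like protein without lipase activity (-0.75), and IFT52, of intraflagellar transport (-0.73). PLCL2 stood at 9.49 to 9.74 in Siro.F against 10.24 to 10.54 in Tac.Mtx.F, and the 4 others did not overlap between groups either. LOC717595 (-0.95), TMEM185A (-0.70), NSMCE3, of the SMC5/6 complex (-0.68), EMP3 (-0.68) and CETN2, a calcium-binding centriole protein (-0.67), are named here after their values were seen, and complete the 23. None of these 10 genes passed in all 7 fits without 1 array, and their adjusted p reached between 0.0529 for LOC717595 and 0.169 for COPS8. All 10 were lost without Siro.F animal 18, where the values ran from -0.60 for EMP3 to -0.94 for LOC717595. Without Tac.Mtx.F animal 19 all but CETN2 and TMEM185A were lost, at -0.60 for EMP3 to -0.92 for LOC717595.

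**Figure D2:**
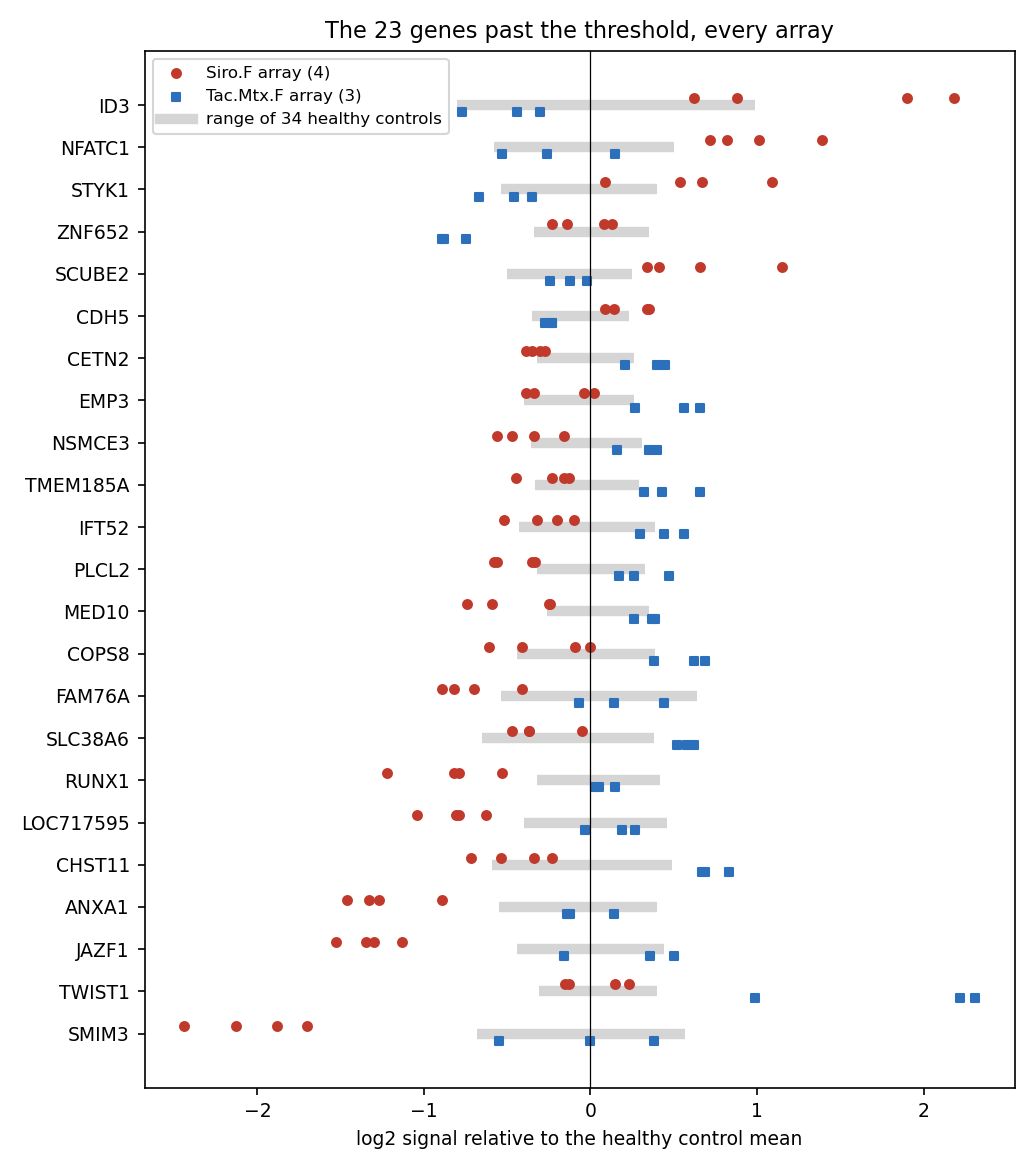
Signal of the 23 genes past the threshold in each Siro.F array (red circles, 4) and each Tac.Mtx.F array (blue squares, 3), as the log2 difference from the mean of the 34 healthy controls, whose range is the grey bar. In every gene the circles and squares are apart, which the threshold favours, and SMIM3, JAZF1, ANXA1, LOC717595, RUNX1 and PLCL2 have all circles left of the healthy range.

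Set against healthy T cells one group at a time, 16 of the 23 genes passed for Siro.F (background 14.6% of genes) and 12 for Tac.Mtx.F (background 14.1%). These 2 comparisons share the 34 healthy arrays and are not independent of the rule that chose the genes. SMIM3, JAZF1, ANXA1, RUNX1, FAM76A, PLCL2, NSMCE3, LOC717595, SCUBE2, NFATC1 and ID3 passed for Siro.F and not for Tac.Mtx.F. TWIST1, SLC38A6, COPS8, IFT52, TMEM185A, EMP3 and ZNF652 passed for Tac.Mtx.F and not for Siro.F. CHST11, MED10, CETN2, CDH5 and STYK1 passed for both, in opposite directions.

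SERPINE2, CMPK2 and FOS were named with the comparison from earlier results of these data, and none of them passed the threshold. SERPINE2 encodes protease nexin-1, an inhibitor of thrombin and related proteases. Its signal was 10.08, 8.53, 8.30 and 10.40 in Siro.F animals 13, 16, 17 and 18, against 6.36, 6.64 and 7.37 in Tac.Mtx.F animals 19, 20 and 21, and the healthy controls ran from 5.28 to 6.63. Every Siro.F array was above every Tac.Mtx.F array, but the Siro.F arrays fell into 2 levels by batch label, with animals 13 and 18 of batch 2 above animals 16 and 17 of batch 1. The difference was 2.58 ± 0.68 (SE, adjusted p = 0.0763; 5.98-fold). All 4 SERPINE2 probe sets gave similar values, 2.34 to 2.90. With the batch 2 Siro.F arrays alone SERPINE2 gave 3.62 (adjusted p = 0.0221), and with those of batch 1 alone 1.39 (adjusted p = 0.459). It also passed without a batch term (2.54, adjusted p = 0.0114), with the animal as a random block (2.63, adjusted p = 0.0453), with array weights (2.51, adjusted p = 0.0469), without Siro.F animal 17 (2.92, adjusted p = 0.0436) and in a fit of only these groups and healthy controls (2.55, adjusted p = 0.000417). Against healthy controls, SERPINE2 rose by 3.38 in Siro.F (adjusted p = 1.71e-07), and Tac.Mtx.F differed by 0.80 (adjusted p = 0.331).

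CMPK2, a mitochondrial nucleotide kinase induced by interferon, stood at 6.51, 5.13, 5.54 and 5.60 in Siro.F animals 13, 16, 17 and 18 and at 6.06, 8.28 and 6.97 in Tac.Mtx.F animals 19, 20 and 21. The healthy range was 4.15 to 5.53. The groups overlapped, since Siro.F animal 13 was above Tac.Mtx.F animal 19. The difference was -1.37 ± 0.47 (SE, 95% interval -2.32 to -0.43, adjusted p = 0.197). CMPK2 rose by 2.23 in Tac.Mtx.F against healthy controls (adjusted p = 2.75e-05), and Siro.F differed by 0.86 (adjusted p = 0.0537). Without Tac.Mtx.F animal 20 the difference between the groups was -0.78 (adjusted p = 0.636), and without a batch term CMPK2 passed (-1.41, adjusted p = 0.047).

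FOS, an AP-1 subunit made within minutes of a stimulus, varied widely in all groups. It measured 10.80, 8.84, 8.42 and 12.21 in Siro.F animals 13, 16, 17 and 18, 13.29, 12.58 and 11.19 in Tac.Mtx.F animals 19, 20 and 21, and 5.78 to 13.40 in healthy arrays. Siro.F animal 18 was above Tac.Mtx.F animal 21, and the 2 Siro.F arrays of batch 2 were again the higher ones. The difference of -2.28 ± 1.38 (SE, 95% interval -5.03 to 0.48) had an adjusted p of 0.513. With the batch 1 Siro.F arrays alone it was -4.17, and with those of batch 2 alone -0.62. FOS rose by 3.85 in Tac.Mtx.F against healthy controls (adjusted p = 0.00813), and Siro.F differed by 1.57 (adjusted p = 0.274). JUNB and DUSP1, other early genes, differed by -1.29 (adjusted p = 0.193) and -1.53 (adjusted p = 0.437). Of the 15 immediate early genes tested, 0 passed, and their median was -0.10, beside -0.026 over all genes.

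The direct targets of the 2 drugs differed little in signal. FKBP1A, the shared binding protein, was dim at 4.17 to 4.33 in Siro.F, 4.28 to 4.48 in Tac.Mtx.F and 3.76 to 4.55 in healthy arrays, and differed by -0.13 ± 0.18 (SE, 95% interval -0.49 to 0.23). MTOR stood at 8.49 to 8.67 in Siro.F and 8.47 to 8.75 in Tac.Mtx.F, and differed by 0.02 ± 0.13 (SE, 95% interval -0.24 to 0.28). RPTOR, the scaffold of mTOR complex 1, differed by -0.15 (95% interval -0.48 to 0.17), and PPP3CB, a catalytic subunit of calcineurin, by -0.13 (95% interval -0.37 to 0.11). These intervals, not adjusted for the number of genes, leave out a 2-fold difference of MTOR, RPTOR and PPP3CB at these array signals. All FKBP1A arrays of both groups lay below the filter level of 4.65, so no limit on its RNA is drawn. Arrays measure RNA and not the activity of the kinase or the phosphatase. PPP3CA and EIF4EBP1 were not analysed here.

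Of 19 genes tested for calcineurin and NFAT proteins, NFATC1 passed as higher, 0 passed as lower, and the median was -0.09. NFATC2 (0.15, adjusted p = 0.797) and NFATC3 (-0.09, adjusted p = 0.882) differed little. RCAN1, a calcineurin inhibitor whose short form is itself induced by calcineurin and NFAT, stood at 6.32, 6.67, 6.03 and 6.07 in Siro.F animals 13, 16, 17 and 18, against 7.35, 6.81 and 7.58 in Tac.Mtx.F animals 19, 20 and 21. The groups were apart, and Tac.Mtx.F lay within the healthy range of 6.48 to 7.58. The difference was -0.97 ± 0.26 (SE) and missed the threshold (adjusted p = 0.0763), although RCAN1 passed as lower in Siro.F against healthy controls (-0.74, adjusted p = 0.00125). Its other probe sets disagreed, at -0.38 and 0.45. STIM1 and STIM2, calcium sensors of the endoplasmic reticulum, were lower in each Siro.F array than in each Tac.Mtx.F array by deposited values. Both also missed the threshold, at -0.46 (adjusted p = 0.209) and -0.62 (adjusted p = 0.214). After the batch term was removed, the Siro.F arrays were all below the Tac.Mtx.F arrays in 4 of the 19 genes (9.55% of all genes). They were all above them in 1 (6.05% of all genes).

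Among 22 genes that T cells switch on through NFAT, 0 passed and the median was 0.12. Over all genes 0.195% passed, so a count of 0 lies near the background in this and every other list given here. IL2RA, the high-affinity chain of the interleukin 2 receptor, stood at 7.36, 7.00, 7.32 and 6.99 in Siro.F animals 13, 16, 17 and 18 and at 5.60, 5.94 and 7.42 in Tac.Mtx.F animals 19, 20 and 21. Tac.Mtx.F animal 21 was as high as the Siro.F arrays. IL2RA differed by 0.84 (adjusted p = 0.308), and passed against healthy controls in Siro.F (0.95, adjusted p = 0.00301) but not in Tac.Mtx.F (0.11, adjusted p = 0.844). The cytokine gene CSF2 differed by -0.34 (adjusted p = 0.368), and FASLG, a death ligand, by 1.29 (adjusted p = 0.371).

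Of 32 genes of the mTOR pathway, 0 passed and the median was -0.14, with 25 differences below 0, where 54.2% of all genes were below 0. TBC1D7, a subunit of the TSC complex that restrains mTOR, stood at 8.60, 8.08, 7.66 and 8.85 in Siro.F animals 13, 16, 17 and 18, against 7.56, 7.57 and 7.60 in Tac.Mtx.F animals 19, 20 and 21 (0.73, adjusted p = 0.312). DDIT4, a stress-induced mTOR inhibitor, differed by -0.61 (adjusted p = 0.734), and TFEB, a lysosomal transcription factor that mTOR holds in the cytoplasm, by -0.48 (adjusted p = 0.352). Of 8 immunophilin genes 0 passed, and FKBP1B differed by -0.57 (adjusted p = 0.384). Without Tac.Mtx.F animal 20, which read 7.15 against 5.21 and 5.51 in the other Tac.Mtx.F arrays, FKBP1B differed by 0.03.

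Of 17 genes of the folate cycle and methotrexate handling, 0 passed and the median was 0.03. TYMS, thymidylate synthase, varied within both groups, with 7.40, 6.44, 6.05 and 8.63 in Siro.F animals 13, 16, 17 and 18 and 4.96, 8.17 and 7.54 in Tac.Mtx.F animals 19, 20 and 21. GGH and FPGS, the enzymes that remove and add the glutamate tail of folates and methotrexate, differed by -0.66 (adjusted p = 0.468) and 0.25 (adjusted p = 0.466).

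Division genes were above healthy level in most arrays of both groups. MKI67, a marker of cycling cells, stood at 8.43, 7.33, 7.48 and 9.10 in Siro.F animals 13, 16, 17 and 18, against 6.58, 8.61 and 8.47 in Tac.Mtx.F animals 19, 20 and 21 and at 5.90 to 7.38 in healthy arrays. Tac.Mtx.F animal 19 was the lowest. The difference was 0.21 (95% interval -0.70 to 1.11, adjusted p = 0.892), and without Tac.Mtx.F animal 19 it was -0.45. In Siro.F, animals 13 and 18 of batch 2 were above animals 16 and 17 of batch 1. With the batch 2 Siro.F arrays alone MKI67 gave 0.98, and with those of batch 1 alone -0.67. Of 23 cell cycle genes tested, 0 passed between the groups (median 0.21, and -0.17 without Tac.Mtx.F animal 19). Their median was 0.71 with the batch 2 Siro.F arrays alone and -0.24 with those of batch 1 alone. Against healthy controls 19 rose in Siro.F, where 8.27% of all genes rose (6.34% fell), and 15 in Tac.Mtx.F, where 10.7% rose (3.41% fell). None of the 23 fell in either group. In bulk RNA, fewer cycling cells and less RNA per cell cannot be told apart.

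Interferon response genes were lower in Siro.F as a list by median, although 0 of 30 passed. The median was -0.58, beside -0.026 over all genes, and 27 of 30 differences were below 0. Without Tac.Mtx.F animal 20 the median was -0.21. In 8 of 30 genes every Siro.F array was below every Tac.Mtx.F array after the batch term was removed, where 9.55% of all genes were. RIGI, a sensor of viral RNA, stood at 4.64, 4.25, 4.60 and 4.75 in Siro.F animals 13, 16, 17 and 18, against 5.26, 6.43 and 4.89 in Tac.Mtx.F animals 19, 20 and 21 (-0.96 ± 0.29, SE, adjusted p = 0.11). MX2, an antiviral GTPase, stood at 7.79, 7.18, 8.40 and 7.93 in Siro.F animals 13, 16, 17 and 18, against 8.58, 10.12 and 8.74 in Tac.Mtx.F animals 19, 20 and 21 (-1.34 ± 0.41, SE, adjusted p = 0.127). DDX60 (-0.74, adjusted p = 0.13) and SP100 (-0.50, adjusted p = 0.155) had the next smallest p. The mean of the list relative to healthy controls was 0.30, -0.04, 0.37 and 0.44 in Siro.F animals 13, 16, 17 and 18 and 0.60, 1.52 and 0.58 in Tac.Mtx.F animals 19, 20 and 21, so animal 20 stood far above the others. Against healthy controls, 3 of 30 rose in Siro.F (8.27% of all genes) and 15 of 30 in Tac.Mtx.F (10.7% of all genes). RIGI passed with array weights (-1.23, adjusted p = 0.0201), and without Tac.Mtx.F animal 21 (-1.28, adjusted p = 0.0478). Siro.F animals 13, 16 and 17 lay below the filter level of 4.65 for RIGI.

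Several cholesterol synthesis genes were lower in every Siro.F array. Of 22 genes for cholesterol and fatty acid synthesis 0 passed, the median was -0.19, and in 7 of 22 the Siro.F arrays were all below the Tac.Mtx.F arrays after the batch term was removed (9.55% of all genes). NSDHL, a sterol dehydrogenase, stood at 7.27, 7.35, 7.36 and 7.17 in Siro.F animals 13, 16, 17 and 18, against 7.82, 7.95 and 8.01 in Tac.Mtx.F animals 19, 20 and 21 (-0.64 ± 0.17, SE, adjusted p = 0.0846). EBP, a sterol isomerase (-0.64, adjusted p = 0.11), INSIG1, a sterol sensor partner (-0.65, adjusted p = 0.156), and SQLE, squalene epoxidase (-0.80, adjusted p = 0.273), were also apart. NSDHL passed against healthy controls in Tac.Mtx.F (0.70, adjusted p = 0.000309), and Siro.F differed by 0.06 (adjusted p = 0.798). EBP (0.57, adjusted p = 0.00482) and SQLE (0.93, adjusted p = 0.00613) also passed in Tac.Mtx.F and not in Siro.F. INSIG1 instead passed as lower in Siro.F (-0.50, adjusted p = 0.00788), and Tac.Mtx.F differed by 0.15 (adjusted p = 0.6). The list median ran from -0.28 to -0.12 over the alternative settings. NSDHL and EBP passed with array weights (-0.66, adjusted p = 0.0331, and -0.70, adjusted p = 0.0428).

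Cytotoxic effector genes had a median of -0.51, or -0.08 without Tac.Mtx.F animal 19, and 0 of 21 passed. The chemokine CCL5 stood at 8.15, 10.94, 8.44 and 10.38 in Siro.F animals 13, 16, 17 and 18, against 12.67, 11.79 and 9.88 in Tac.Mtx.F animals 19, 20 and 21 (-1.99 ± 0.90, SE, adjusted p = 0.34). ZEB2, a transcription factor of terminal effector cells, differed by -1.85 (adjusted p = 0.297), and the granule protease gene GZMB by -0.05 (95% interval -1.24 to 1.14). Siro.F animals 13 and 17 were low for CCL5 and ZEB2 and animals 16 and 18 high, so the spread inside Siro.F was as wide as the difference. The coreceptor genes CD8A (0.00) and CD4 (-0.01) had the same mean in both groups within 0.01.

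Of 11 inhibitory receptor and exhaustion genes, 0 passed and the median was 0.34. While 7 were above 0, 4 were below, CD160 (-0.66), CD244 (-0.51), CD96 (-0.46) and VSIR (-0.44). ENTPD1, the ectonucleotidase CD39, stood at 7.60, 8.22, 7.45 and 9.38 in Siro.F animals 13, 16, 17 and 18, against 6.46, 6.77 and 6.68 in Tac.Mtx.F animals 19, 20 and 21 and at 4.96 to 6.29 in healthy arrays. Both groups lay above healthy, Siro.F further (1.53 ± 0.44, SE, adjusted p = 0.0971). In a fit of only these groups and healthy controls ENTPD1 passed (1.53, adjusted p = 0.0237). LAG3 differed by 0.99 (adjusted p = 0.34) and CTLA4 by 0.46 (adjusted p = 0.736), and both passed against healthy controls in both groups. LAG3 rose by 2.69 in Siro.F and 1.70 in Tac.Mtx.F.

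Of 12 genes of the interleukin 17 program 0 passed. The median was -0.13, with 8 of 12 below 0, and ZBTB16 (0.86), IRF4 (0.45), BATF (0.34) and IL17F (0.13) were above 0. In 3 of 12, IL17A, RORA and CCR6, every Siro.F array was below every Tac.Mtx.F array after the batch term was removed, beside 9.55% of all genes. IL17A was dim, at 4.06, 3.94, 3.73 and 4.20 in Siro.F animals 13, 16, 17 and 18, against 4.28, 5.16 and 4.41 in Tac.Mtx.F animals 19, 20 and 21 (-0.63, adjusted p = 0.194). RORA (-1.04, adjusted p = 0.217) and CCR6 (-0.96, adjusted p = 0.273), a nuclear receptor and a chemokine receptor of these cells, were also lower in every Siro.F array. IL26 stood at 2.91 to 3.07 in Siro.F and at 3.04, 5.77 and 4.46 in Tac.Mtx.F animals 19, 20 and 21. For IL17A and IL26, all Siro.F arrays and Tac.Mtx.F animals 19 and 21 lay below the filter level of 4.65.

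Genes of other blood cells varied between the groups too. Of 14 erythroid and platelet markers 13 were below 0, with a median of -0.63. Summed over the list as a mean relative to healthy controls, they stood at -0.24 to -0.04 in Siro.F and at 0.05, 1.29 and 0.50 in Tac.Mtx.F animals 19, 20 and 21, and without animal 20 the median was -0.11. PF4, of platelets, ran from 8.57 to 9.65 in Siro.F and from 8.53 to 12.86 in Tac.Mtx.F. S100A8, of neutrophils and monocytes, stood at 8.71 to 11.84 in Siro.F and 8.85 to 11.22 in Tac.Mtx.F, with 5.22 to 9.06 in healthy arrays. Of 18 monocyte and neutrophil markers tested, 9 were above 0 and 9 below. KLRF1, of NK cells, ran from 6.97 to 9.90 in Siro.F and from 8.83 to 10.53 in Tac.Mtx.F. Other NK cell markers went the other way, such as KLRC1 (1.74, adjusted p = 0.621). Of 9 tested, 4 were above 0 and 5 below, with a median of -0.02. MZB1, of B and plasma cells, was higher in Siro.F by 0.98 without passing (adjusted p = 0.0971), and passed with the batch 2 Siro.F arrays alone (1.46, adjusted p = 0.0221) and without Siro.F animal 17 (1.18, adjusted p = 0.0427). The part of such cells in the interferon, cytotoxic and other differences was not tested.

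**Figure D3:**
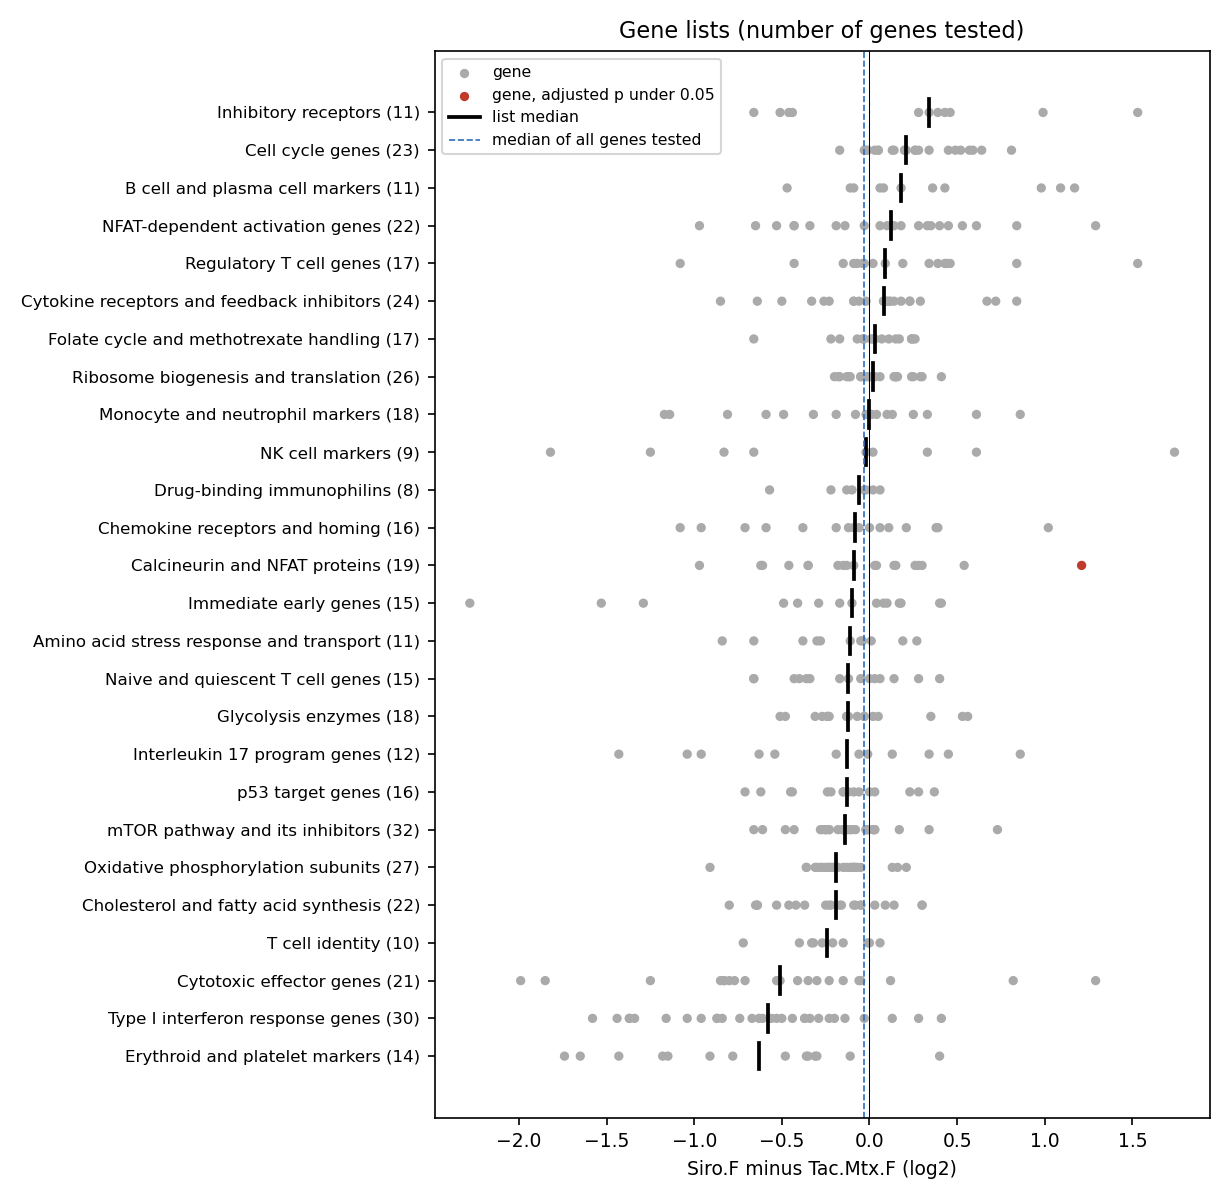
Difference of each tested gene of 26 lists (Siro.F minus Tac.Mtx.F, log2, x axis), with the list median as a black bar, the number of genes tested in brackets and the median of all 11806 genes as a dashed line. NFATC1 is the only gene of these lists past the threshold (red), and interferon response genes and erythroid and platelet markers lie furthest left by median.

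The other groups of the series show where these levels stand. NFATC1 and ID3 were higher on average in Siro.F than in any other of the 16 groups, and SMIM3 lower, at a mean of 7.23 in Siro.F against 8.05 in allogeneic recipients given no prophylaxis (NoRx.F), the next lowest. These orders were not tested. In recipients of sirolimus with belatacept (Bela.Siro.F) and with FR104 (FR104.Siro.F), NFATC1 averaged 9.56 and 9.50, ID3 8.57 and 8.27, and SMIM3 8.41 and 8.38, nearer to healthy level than in Siro.F. TWIST1 was high in those combinations, at 5.56 in Bela.Siro.F and 5.58 in FR104.Siro.F, as in Tac.Mtx.F (5.56), while Siro.F (3.75), NoRx.F (3.64) and healthy controls (3.72) were low. JAZF1 and RUNX1 were lowest in NoRx.F, at 7.51 and 7.87, with Siro.F next at 8.23 and 8.56. NoRx.F carries the batch labels of Siro.F, 1 (3 arrays) and 2 (1 array). Bela.Siro.F (2 arrays) carries batch label 3, that of Tac.Mtx.F, and FR104.Siro.F batch label 4. Likeness by treatment and likeness by batch cannot be told apart in these orders.

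Among transplant groups, the mean of SERPINE2 was lowest in the tacrolimus groups, at 6.93 (Tac.Mtx.D14), 6.72 (Tac.Mtx.D30) and 6.79 (Tac.Mtx.F). The next lowest transplant group, FR104.Siro.D14, averaged 7.82 but overlapped them (6.67 to 9.35), and Bela.F was the highest at 9.63. For the 23 genes past the threshold, the Tac.Mtx.D30 mean was nearer to Tac.Mtx.F than to Siro.F in all 23 and the Tac.Mtx.D14 mean in 20. These are not independent values, since the D14 arrays are of animals 19, 20 and 21 and the D30 arrays of animals 19 and 20, with the same batch label, and the 23 genes were chosen for their distance between Siro.F and Tac.Mtx.F. The healthy mean was nearer to Tac.Mtx.F in 13 of 23. The FR104.Siro.F mean was nearer to Tac.Mtx.F in 7 of 23 and the Bela.Siro.F mean in 15. Bela.Siro.F holds 2 arrays and shares batch label 3 with Tac.Mtx.F, whereas FR104.Siro.F carries batch label 4. Treatment and batch cannot be told apart in these counts.

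**Figure D4:**
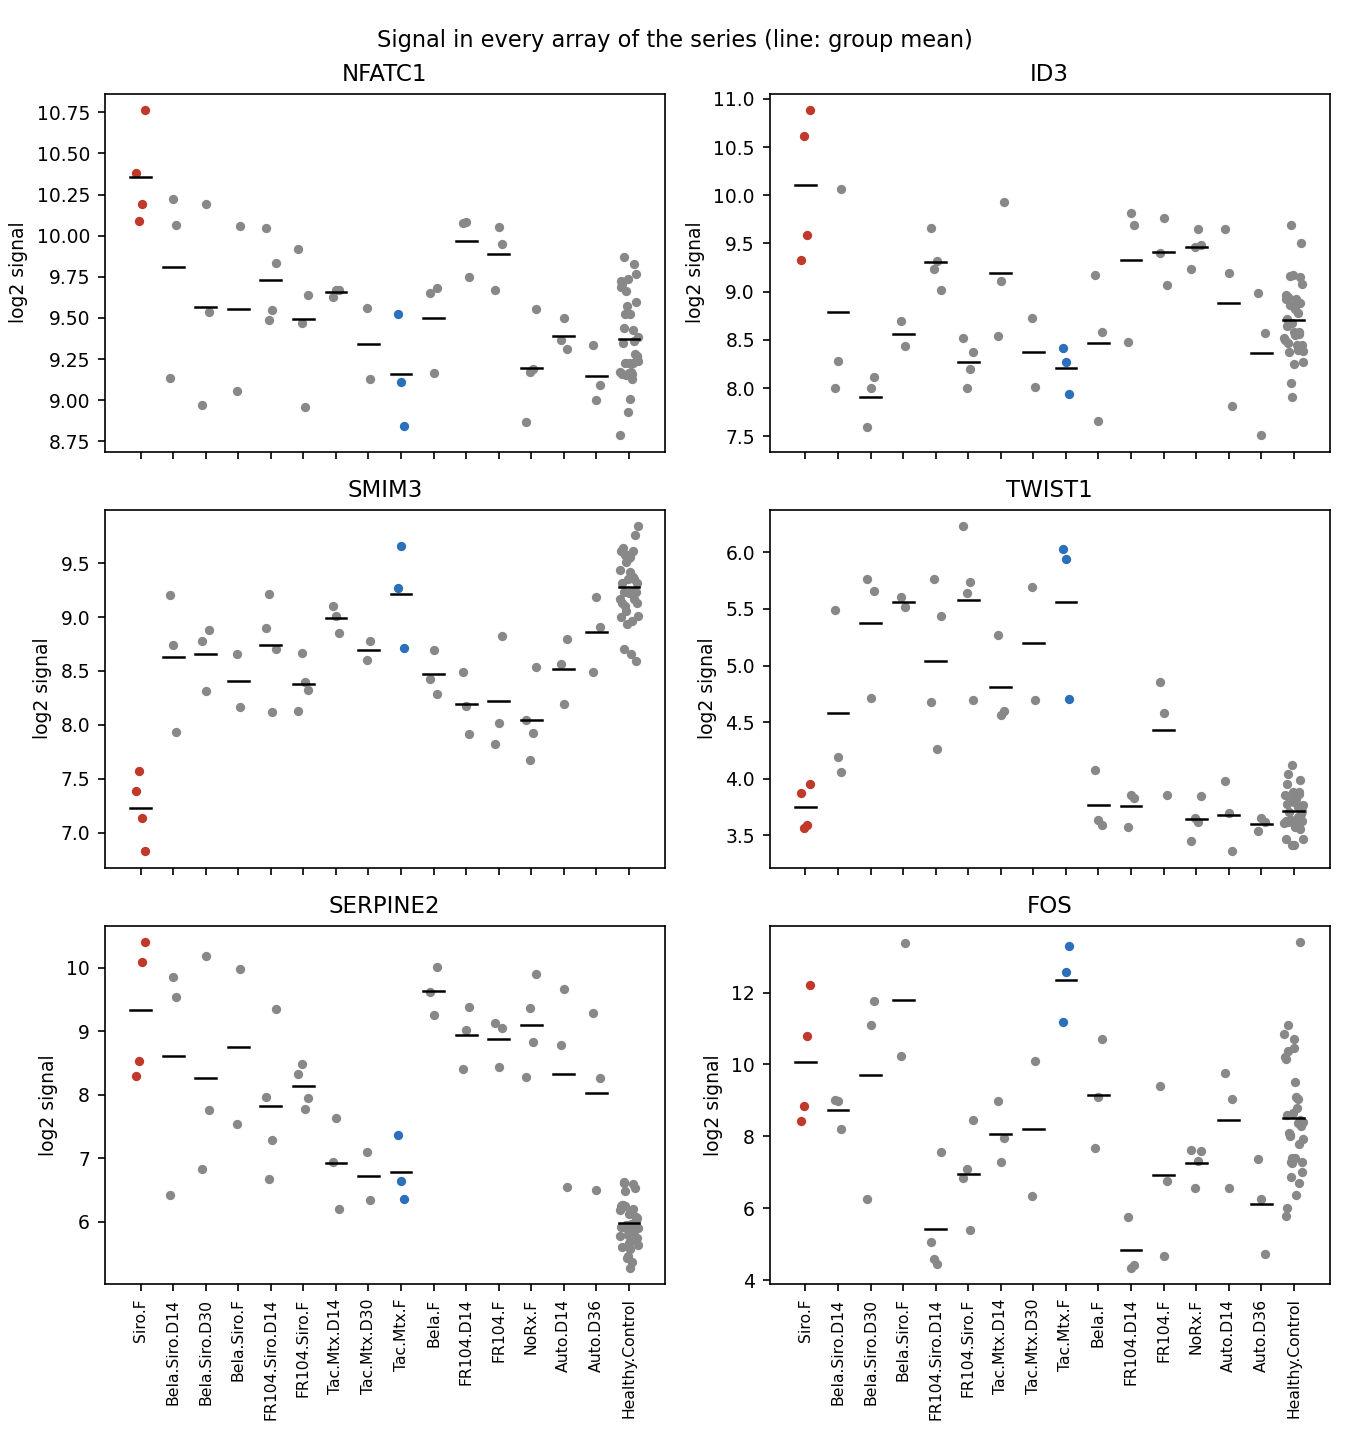
log2 signal of NFATC1, ID3, SMIM3, TWIST1, SERPINE2 and FOS in each of the 81 arrays by group (x axis), with Siro.F in red, Tac.Mtx.F in blue and lines at group means. TWIST1 is high in tacrolimus and sirolimus combination groups and low in Siro.F, and SERPINE2 is low in the tacrolimus groups and healthy controls.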

How the data were processed

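The 81 arrays measured RNA of sorted CD3 cells of 50 rhesus macaques in 16 labelled groups. The authors deposited log2 signals per probe set, made with RMA in affy, per the submitters' processing notes, which give no version. Array platforms give no read depth, so the number of arrays limits the precision.

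A gene table named 24969 of 52865 probe sets with 1 gene. The brightest probe set stood for each gene (14132 genes), and the 11806 genes with 2 or more arrays over 4.65, percentile 40 of the data, were tested. limma 3.58.1 in R 4.3.3 (lmFit, eBayes with a trend) was fitted to all 81 arrays with group and batch label as terms (62 residual degrees of freedom). Adjusted p-values are Benjamini-Hochberg, 2-sided, over all genes tested, and the threshold was 0.05. SE and 95% intervals come from this fit. The script was tested on simulated data. Array values are the deposited ones. A list score is the mean over a list's tested genes relative to the healthy mean.

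Members and lists were chosen with earlier results of these data known. Named were SERPINE2, CMPK2 and FOS, the 12 largest rises and falls past the threshold with non-overlapping groups (LOC symbols passed over), up to 4 members with the smallest adjusted p of each of 26 lists, and a fixed set of T cell and drug target genes, of which a part is printed. Healthy and transplant arrays of 1 animal were treated as separate, with a random animal block (correlation 0.194, statmod 1.5.0) as an alternative. The other alternatives are given with the closing observations.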

Additional observations from a re-analysis of the deposited data

Results flagged for a closer look

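Of 78 named genes checked for 1 array far from the rest of the 4 Siro.F arrays, 3 had one, and chance alone gives about 1 in 20. IL4, a Th2 cytokine gene, was highest in Siro.F animal 18 at 5.39, with the other 3 at 4.21 to 4.35. CISH, a feedback inhibitor of cytokine receptors, was lowest in animal 13 at 9.68, with the others at 10.16 to 10.25. CD8A, a coreceptor chain, was lowest in animal 17 at 11.95, with the others at 12.81 to 12.89. None of these 3 genes passed between Siro.F and Tac.Mtx.F. With 3 arrays, Tac.Mtx.F was too small for this check.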

How the results depend on the processing

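Beside 23 genes in the fit reported, 303 passed without a batch term (87 higher and 216 lower in Siro.F), 41 with the animal as a random replicate block, 60 with only these groups and healthy controls, 53 with healthy controls of batches 1 to 3 only, 35 with the batch 2 Siro.F arrays alone and 101 with array weights. Testing every probe set gave 171 (101 higher, 70 lower). After subtracting each array's median, an alternative chosen after seeing the data, 86 passed (6 higher, 80 lower). Leaving out each array in turn gave 5 to 32. Batch 1 Siro.F arrays alone gave 24, and 8 of the 23 genes passed there, 12 with batch 2 alone. The mean of probe sets gave 27 and kept 14 of 22. Genes with a single probe set keep their values in that setting, so it does not check them. Of those with several, ANXA1, FAM76A, JAZF1 and SMIM3 passed. COPS8, ID3, IFT52, NFATC1, RUNX1, STYK1, TMEM185A and ZNF652 did not. No filter, a stricter filter, no trend, a robust prior, renewed quantile normalization and the actin covariate (also added later) gave 19 to 27. The 23 genes kept their sign in every setting that tested them (the stricter filter tested 20, without CDH5, STYK1 and TWIST1, and the mean of probe sets 22, without CDH5). In fits that only left out arrays this was largely fixed beforehand, since the groups did not overlap in these genes. The cause of the shifts was not tested.

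Signs turned only in genes that had not passed. With batch 1 Siro.F arrays alone, NFATC2 gave -0.03, NFATC3 0.10, MTOR -0.03, TYMS -0.88, MKI67 -0.67 and CD4 0.29. With batch 2 alone, GZMB gave 0.15 and CD8A 0.20. The mean of probe sets gave -0.01 for NFATC2 and 0.04 for NFATC3. Quantile normalization gave 0.02 for NFATC3, 0.01 for CD4 and 0.07 for CD8A. Array weights gave -0.02 for MTOR, TYMS and MKI67. The animal block gave 0.00 for GZMB and 0.05 for CD8A, median subtraction -0.06 for MTOR and the actin covariate 0.01 for CD4. Without 1 array the ranges were -0.03 to 0.11 for MTOR, -0.94 to 0.03 for FKBP1B, -0.70 to 0.90 for TYMS, -0.45 to 0.57 for MKI67, -0.36 to 0.30 for GZMB, -0.28 to 0.18 for CD4 and -0.12 to 0.21 for CD8A. Of list medians, that of cell cycle genes ran from -0.24 to 0.71, oxidative phosphorylation from -0.39 to 0.02, calcineurin and NFAT from -0.17 to 0.01, cytotoxic genes from -1.06 to -0.08 and interferon response genes from -0.73 to -0.21.

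The groups share no batch, hold 4 and 3 animals, and were adjusted for batch before deposit by a method not given in the sources used here. Doses and final days are not given. Of the 23 genes, 12 had several probe sets, and in ID3, RUNX1, TMEM185A and ZNF652 some of them had the opposite sign.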

Other observations

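Of 17269 probe sets without a gene name that passed the filter, 100 passed the threshold between Siro.F and Tac.Mtx.F when every probe set was tested on its own, and their genes are not named here. Oxidative phosphorylation subunits had a median of -0.19, with 24 of 27 below 0 and 0 passed between the groups. Against healthy controls 5 of 27 rose in Siro.F (background 8.27%) and 14 of 27 in Tac.Mtx.F (background 10.7%). Of 18 glycolysis genes, 9 rose against healthy controls in Siro.F and 8 in Tac.Mtx.F, and the median between the groups was -0.12. TXNIP, a brake on glucose uptake that quiescent cells keep high, fell by 0.85 in Siro.F against healthy controls (limma adjusted p = 0.000165), and Tac.Mtx.F differed by -0.19 (adjusted p = 0.567). Between the groups TXNIP differed by -0.66 (adjusted p = 0.237). TXNIP is 1 of 15 naive and quiescent T cell genes tested. Of these, 0 passed between the groups, the median was -0.12, and 5 were above 0 and 10 below. Against healthy controls the list median was -0.24 in Siro.F and -0.22 in Tac.Mtx.F. There 4 of 15 fell in Siro.F (background 6.34%) and 2 in Tac.Mtx.F (background 3.41%), and 0 rose in either.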
